A study of Mus musculus with 2 samples.

Results

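The genes described are 10 members of the integrated stress response, the programme run by the transcription factors ATF4 and CHOP, as recorded in RNA sequencing of CMT167R cells. They were picked by symbol: Atf4, Atf5, Ddit3, Ddit4, Trib3, Chac1, Asns, Sesn2, Nupr1 and Ppp1r15a. The list was drawn up with earlier results of these data known. All 10 symbols were found among the 54532 genes of the deposited table. Ddit3 stood at a second identifier (ENSMUSG00000116429), which had 0 counts in both libraries, and only its other entry is used below. All 10 reached a level of 1 CPM (counts scaled to a library total of 1000000) in a library, as did 12273 genes in all. By its name CMT167R derives from the mouse lung carcinoma line CMT167. The labels call these cells resistant to anti-PD1, an antibody against a brake receptor on T cells. The untreated cells (CON) and the cells given 50 nM of a compound labelled PKCi for 24 h were each sequenced as 1 library. The labels name neither the compound nor a vehicle for the untreated cells, so both groups share the resistant line and differ by the compound as labelled. The comparison asks how the compound altered transcript levels in resistant cells.

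In the integrated stress response, kinases that sense amino acid shortage, unfolded protein in the endoplasmic reticulum, heme shortage, mitochondrial damage or viral RNA phosphorylate the translation factor eIF2 on its alpha subunit. General translation then slows, while messages with short reading frames upstream of the main one, Atf4 first among them, are translated more, so ATF4 is controlled largely after transcription and its message need not follow its activity. ATF4 pairs with other bZIP proteins on composite C/EBP-ATF sites and turns on genes of amino acid supply, CHOP (the product of Ddit3) and feedback regulators.

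Gene counts totalled 16090186 in the untreated and 16071153 in the PKCi library, so 1 CPM stood for 16.1 counts in each. With 1 library in each group nothing below has a replicate check and no p-value is given. A fold is the plain ratio of CPM, and its 95% interval (exact conditional binomial, Clopper-Pearson) covers counting error only. A gene is counted as at least 2-fold higher or lower on the log2 scale after adding 1 CPM to each library, which shrinks low genes slightly. The epithelial markers Epcam, Krt8, Krt18, Krt7, Krt19 and Cdh1 summed to 1685 CPM without the compound and 2057 CPM with it, mostly from Krt8 and Krt18. Epcam was at only 3.48 and 6.28 CPM and Cdh1 at 2.92 and 3.36 CPM. Krt7 was the 1 lower with PKCi (43.5 and 29.8 CPM). Of 8 retina markers, checked because 1 protocol in the labels speaks of retinas, 5 were at 0 in both libraries and the sums were 0.249 and 0.373 CPM. Of 8 leukocyte markers 5 were at 0 in both libraries, Ptprc among them, and the sums were 10.6 and 6.72 CPM. The 6 fibroblast markers summed to 100.3 and 35.9 CPM, mostly from Pdgfrb, and none was at 0 in both libraries. Of the 4 that reached 1 CPM, 2 were lower with PKCi and 2 higher, Pdgfra (2.67 and 6.04 CPM) and Dcn (0.0621 and 1.06 CPM). What part the difference in the sums has in the results below was not tested. RNA was taken from whole cultures, so more RNA in each cell and more cells with that RNA cannot be told apart.

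The 10 genes ranged from 2.86-fold higher with PKCi (Nupr1) to 1.11-fold lower (Atf4). Nupr1, Ddit4, Trib3 and Ppp1r15a were at least 2-fold higher in the PKCi library and 0 members were at least 2-fold lower. Over all 12273 genes, the share past 2-fold was 6.53% upward and 5.13% downward. Of the members 7 had a log2 ratio above 0 and 3 below, beside 49.2% of all genes above 0. Their median log2 ratio was 0.62, and that of all genes was −0.01. Atf4 and Asns, the most abundant members in untreated cells, were slightly lower. Atf4 supplied 10154 of the 22195 untreated counts of the members, and the summed level went from 1379 CPM untreated to 1678 CPM with PKCi (1.22-fold, 95% interval 1.20 to 1.24).

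**Figure D1:**
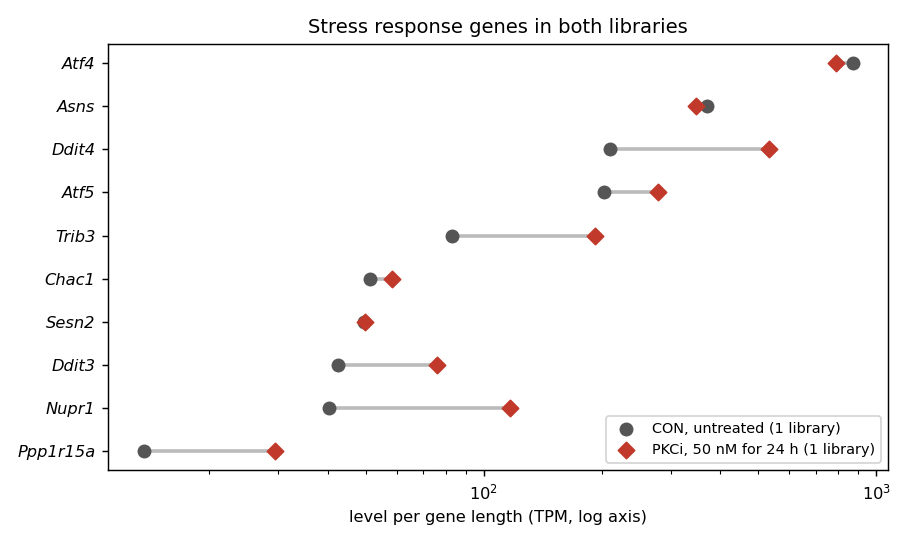
Level of each of the 10 genes in the untreated library (circles) and the PKCi library (diamonds), per gene length in TPM (transcripts scaled like CPM) on a log axis, 1 library a group. Atf4 is the highest and Ppp1r15a the lowest in both libraries, and Ddit4, Trib3, Nupr1 and Ppp1r15a show the widest gaps.

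The promoters of the members were searched for the composite C/EBP-ATF site through which ATF4 and its partners act. The genes were listed as members of that programme and may carry the site for that reason. Its share among them is a description and no independent check. RefSeq promoters on GRCm38.p6, each reaching from 250 bases before the transcription start to 50 bases after it, were matched for all 10 genes (11 promoters, as Atf5 has an alternative one). The letters TGATGNAA were sought on both strands. They stood in 4 of the 10 genes, against 4.51% of 27025 genes with a promoter in the table, or 3.97% of 32851 promoters. The matches are shown 5′ to 3′ on the strand of the gene, with the matching letters in capitals; where the window touches a transcribed stretch it is kept to 30 bases.
Nupr1: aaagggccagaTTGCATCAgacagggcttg
Trib3: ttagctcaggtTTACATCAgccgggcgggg
Chac1: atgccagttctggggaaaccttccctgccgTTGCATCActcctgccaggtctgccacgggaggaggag
Asns: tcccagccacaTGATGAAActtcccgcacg
The Nupr1 window is chr7:126625562-126625591 on the minus strand, and its match begins 110 bases before the RefSeq start, inside the span that the deposited table gives the gene. The Trib3 window is chr2:152344028-152344057 on the minus strand; its match begins at base 15 after the RefSeq start and 14 bases before the start in the deposited table. The Chac1 window is chr2:119351019-119351086 on the plus strand, with the match 193 bases before the RefSeq start. The Asns window is chr6:7693214-7693243 on the minus strand, with the match 23 bases before the RefSeq start and at base 23 of the gene in the deposited table. In Nupr1, Trib3 and Chac1 the letters lie on the opposite strand, so the window shows their reverse complement.

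Genes with these letters were found among the higher genes and among those near their untreated level. Nupr1 and Trib3, which carry them, were at least 2-fold higher with PKCi, while Chac1 and Asns, which also carry them, were at ratios of 1.13 and 0.934. Ddit4 and Ppp1r15a were at least 2-fold higher without them in this window. A different element, the palindrome TGACGTCA bound by CREB and ATF proteins, was looked for after the promoters had been read. It stood in 1 of the 10 genes, Ppp1r15a, and in 1.79% of all 32851 promoters. It overlaps no match above, and it is shown because Ppp1r15a was among the genes at least 2-fold higher.
Ppp1r15a: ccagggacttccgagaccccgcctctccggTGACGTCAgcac
That window is chr7:45526269-45526310 on the minus strand, and the match begins 12 bases before the start. A match of letters is a description of the window only.

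Among the transcription factors, Nupr1 had the highest ratio of all 10 members. Nupr1 encodes a small chromatin-associated protein induced by many stresses. It was at 31.3 CPM without the compound and 89.7 CPM with it (504 and 1442 counts), which is 2.86-fold higher with PKCi (95% interval 2.59 to 3.18). Its log2 ratio of 1.49 was above that of 97.6% of all 12273 genes. The gene (ENSMUSG00000030717) covers positions 126623249 to 126630861 of chromosome 7, minus strand.

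Ddit3 encodes CHOP, a bZIP protein that dimerises with C/EBP factors and takes part in cell death after prolonged stress. It was at 22.4 CPM without the compound and 39.8 CPM with it (360 and 640 counts). The PKCi library was 1.78-fold higher (95% interval 1.56 to 2.03), so the point value lies below 2-fold and its counting interval reaches past it. Its log2 ratio of 0.80 exceeded that of 89.8% of all genes. Ddit3 (ENSMUSG00000025408) covers positions 127290774 to 127296288 of chromosome 10, plus strand, and its last 68 bases are shared with Mars, the methionyl-tRNA synthetase gene on the opposite strand. Mars was lower with PKCi, at 185.8 CPM untreated and 145.4 CPM treated.

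Atf5, a bZIP factor related to ATF4 and known for its part in mitochondrial stress, was between these and the genes near their untreated level. It was at 124.4 CPM without the compound and 169.0 CPM with it (2002 and 2716 counts, 1.36-fold higher, 95% interval 1.28 to 1.44). Atf5 (ENSMUSG00000038539, chromosome 7 from 44812256 to 44816658, minus strand) shares 571 bases with Nup62 on the other strand, which went the other way, from 163.4 to 126.9 CPM. Whether overlapping reads were split by strand is not given in the sources used here.

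Atf4 itself, the hub of the programme, was at 631 CPM without the compound and 568 CPM with it (10154 and 9133 counts). That is 1.11-fold lower with PKCi, with a 95% counting interval (1.08 to 1.14) that leaves out 1. Its log2 ratio of −0.15 exceeded that of 40.3% of all genes. Atf4 (ENSMUSG00000042406) covers positions 80255184 to 80257541 of chromosome 15, plus strand, and no other gene in the table overlaps it. Per gene length, Ddit3 stood at 4.88% of Atf4 in the untreated library and at 9.65% in the PKCi library. Nupr1 went from 4.66% of Atf4 to 14.8%, and Trib3 from 9.56% to 24.4%. Asns held nearly the same proportion, 42.6% and 44.2%. The size of these percentages depends on the deposited gene lengths, which cancel in the change between libraries.

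The feedback inhibitors Trib3 and Ppp1r15a were both at least 2-fold higher. Trib3, a pseudokinase that binds ATF4, CHOP and AKT and restrains them, was at 54.4 CPM without the compound and 124.9 CPM with it (875 and 2008 counts). The ratio was 2.30-fold (95% interval 2.12 to 2.49), above 95.6% of all genes on the log2 scale. Trib3 (ENSMUSG00000032715) covers positions 152337422 to 152344032 of chromosome 2, minus strand. Ppp1r15a encodes GADD34, the stress-induced subunit that brings protein phosphatase 1 to eIF2alpha and so ends the block of translation. It was the least abundant member, at 12.3 CPM without the compound and 26.4 CPM with it (198 and 425 counts), 2.15-fold higher (95% interval 1.81 to 2.56). Its log2 ratio of 1.04 sits just past the size used for counting, and with 5 CPM added to each library in place of 1 it was 0.86 and no longer counted. Ppp1r15a (ENSMUSG00000040435) covers positions 45522916 to 45526268 of chromosome 7, minus strand and overlaps Tulp2, which had 2 and 3 counts. Ppp1r15b, the constitutive subunit of the same phosphatase, was at 187.6 and 181.9 CPM.

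The mTORC1 inhibitors Ddit4 and Sesn2 did not share a direction. Ddit4, or REDD1, restrains mTORC1 through the TSC complex and is also induced by hypoxia and glucocorticoids. It was at 113.0 CPM without the compound and 286.8 CPM with it (1818 and 4609 counts), 2.54-fold higher (95% interval 2.40 to 2.68). Its log2 ratio of 1.34 exceeded that of 96.6% of all genes. Ddit4 (ENSMUSG00000020108) covers positions 59949669 to 59951834 of chromosome 10, minus strand and no gene in the table overlaps it. Sesn2, a leucine sensor that acts on mTORC1 through the GATOR complexes, was at 53.0 CPM without the compound and 52.9 CPM with it (853 and 850 counts). Its ratio was 0.998 (95% interval 0.906 to 1.10), so a difference was not detectable at this depth. Sesn2 (ENSMUSG00000028893) covers positions 132492032 to 132510501 of chromosome 4, minus strand. Its relatives Sesn1 (13.4 and 11.8 CPM) and Sesn3 (218.5 and 158.7 CPM) were also not higher.

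The enzymes Asns and Chac1 stood close to their untreated levels. Asns makes asparagine from aspartate and glutamine and is a standard readout of ATF4 after amino acid shortage. It was at 311.7 CPM without the compound and 291.2 CPM with it (5015 and 4680 counts), 1.07-fold lower (95% interval 1.03 to 1.11). Chac1 breaks down glutathione and is another sensitive target of the pathway. It was at 25.9 CPM without the compound and 29.2 CPM with it (416 and 470 counts), a ratio of 1.13 whose 95% interval, 0.989 to 1.29, includes 1, so a difference was not detectable at this depth. Asns (ENSMUSG00000029752) covers positions 7675169 to 7693254 of chromosome 6, minus strand, and Chac1 (ENSMUSG00000027313) positions 119351229 to 119354381 of chromosome 2, plus strand.

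**Figure D2:**
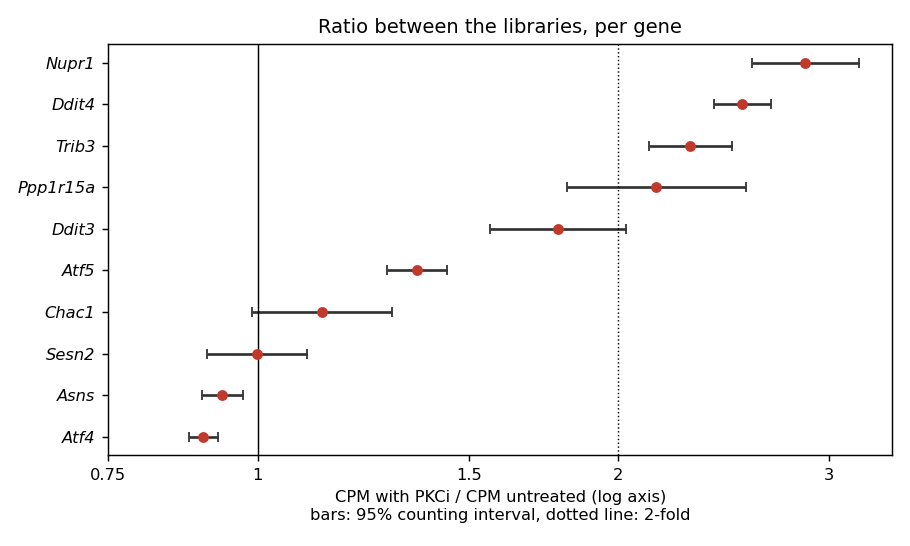
Ratio of CPM in the PKCi library to CPM in the untreated library for each gene, on a log axis, with the 95% counting interval as bars. The intervals of Nupr1, Ddit4 and Trib3 lie wholly above the dotted line at 2-fold, those of Ppp1r15a and Ddit3 cross it, and those of Chac1 and Sesn2 cross 1.

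The counting intervals order the higher genes only in part. The interval of Nupr1 (2.59 to 3.18) begins above the upper bounds of Trib3 (2.49) and Ppp1r15a (2.56), whereas those of Ddit4 and Nupr1 overlap. Ddit3 (up to 2.03) ends below the lower bounds of Trib3 (2.12), Ddit4 (2.40) and Nupr1. Spread between cultures is unknown, so this order describes these libraries.

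Levels were compared between genes per deposited gene length, in TPM with exact Poisson 95% intervals. That length exceeds the principal GENCODE M21 transcript for Nupr1 (2514 against 829 bases) and Ddit3 (1713 against 890), which lowers their TPM. It also does for Atf4 (2358 against 1725) and Asns (2735 against 2016), and by less for Atf5, Trib3 and Ppp1r15a. For Chac1 (1637), Sesn2 (3475) and Ddit4 (1755) the lengths are equal. The places below, those of Nupr1 and Ddit3 above all, therefore hold for the deposited lengths only, and the intervals do not cover this. In untreated cells Atf4 led at 869 TPM (852 to 886), followed by Asns at 370 TPM (360 to 381). Ddit4 at 209 TPM (200 to 219) and Atf5 at 203 TPM (194 to 212) were next and overlapped, and Trib3 was at 83.1 TPM (77.7 to 88.8). Chac1 (51.3 TPM, 46.5 to 56.5), Sesn2 (49.5 TPM, 46.3 to 53.0), Ddit3 (42.4 TPM, 38.2 to 47.04) and Nupr1 (40.5 TPM, 37.01 to 44.2) followed. Ddit3 overlapped each of the other three, and Nupr1 overlapped Ddit3 but lay below Chac1 and Sesn2. Ppp1r15a was lowest at 13.6 TPM (11.8 to 15.6). With PKCi, Atf4 remained the highest at 787 TPM and Ppp1r15a the lowest at 29.4 TPM. Ddit4 (534 TPM, 518 to 549) stood above Asns (348 TPM, 338 to 358), the reverse of the untreated order. Nupr1 stood at 117 TPM (111 to 123), in the sixth place instead of the ninth, above Ddit3 (75.9 TPM), Chac1 (58.4 TPM) and Sesn2 (49.7 TPM).

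**Figure D3:**
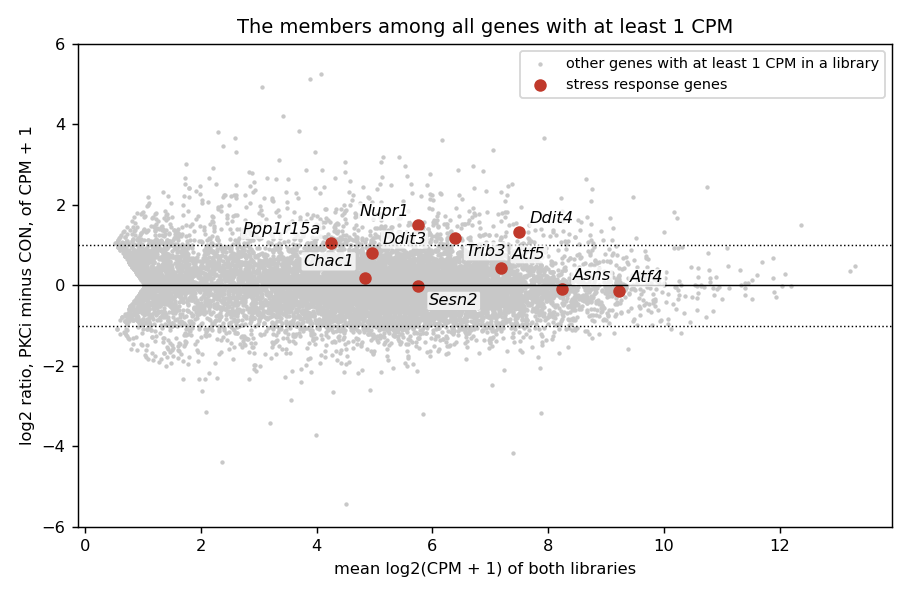
Log2 ratio of CPM + 1, PKCi minus untreated, against the mean log2 level of both libraries for the 12273 genes that reached 1 CPM in either library (grey), with the 10 stress response genes in red and dotted lines at 2-fold. Nupr1, Ddit4, Trib3 and Ppp1r15a lie above the upper line, and Atf4, Asns and Sesn2 lie at the centre of the cloud.

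Since upstream reading frames set how several of these messages are translated, start codons in the leaders (the stretch before the main reading frame) were counted on the principal GENCODE M21 transcript of each gene. Of the 10 members 7 had at least 1 upstream ATG, beside 52.4% of 10757 measured protein-coding genes. The median leader was 220 bases in the members and 181 bases in all genes, and longer leaders hold more ATGs. Ppp1r15a had 7 upstream ATGs in a leader of 764 bases, Atf4 had 3 in 594 bases, and Atf5 and Ddit3 had 2 each, in 373 and 186 bases. Nupr1, Sesn2 and Asns had 1 each, and Chac1, Ddit4 and Trib3 had 0. Transcripts at least 2-fold higher with PKCi were found at both ends of this count, Ppp1r15a with the most and Ddit4 and Trib3 with none. These libraries measure RNA only, so translation of the messages was not measured.

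Upstream of ATF4, the listed genes of the eIF2 pathway lay on both sides of 0, most of them below, beside 49.2% of all genes above 0. None of the 4 eIF2alpha kinase genes was past 2-fold, and 2 were above 0 and 2 below. Eif2ak3 (PERK, the sensor of the endoplasmic reticulum) was at 46.2 and 53.4 CPM, and Eif2ak4 (GCN2, the amino acid sensor) at 51.8 and 40.6 CPM. Eif2ak1 (HRI, which responds to heme shortage and mitochondrial damage) was at 51.0 and 48.6 CPM, and Eif2ak2 (PKR, the sensor of viral RNA) at 41.1 and 46.3 CPM. Counting intervals of the ratio lay above 1 for Eif2ak3 (1.05 to 1.28) and Eif2ak2 (1.01 to 1.25) and below 1 for Eif2ak4 (0.707 to 0.869). That of Eif2ak1 (0.863 to 1.05) includes 1. Of 8 genes for eIF2 and its exchange factor eIF2B, 7 were below 0 with a median log2 ratio of −0.45. With 1 CPM added, 0 were counted as at least 2-fold lower or higher. The lowest was Eif2b1, at 57.2 CPM without the compound and 28.3 CPM with it. Its plain ratio was 2.02-fold lower (95% interval 1.81 to 2.27), and its log2 ratio of −0.99 fell just short of the count. Of 7 genes of eIF2alpha dephosphorylation and kinase inhibition all were below 0 with a median of −0.10, and 0 were past 2-fold. These 7 do not include the member Ppp1r15a, which was 2.15-fold higher. The counting intervals of Ppp1r15b, Nck1 and Impact include a ratio of 1.

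Of the bZIP genes whose products can pair with ATF4 or CHOP, 5 of 13 measured (15 listed) were at least 2-fold higher and 0 lower. Over all 12273 genes the shares were 6.53% upward and 5.13% downward. All 13 had log2 ratios above 0, beside 49.2% of all genes, with a median of 0.78. The counting intervals of Cebpg and Jdp2 include a ratio of 1. Cebpb, a main partner of both proteins, was at 181.2 CPM without the compound and 435.6 CPM with it (2.40-fold, 95% interval 2.30 to 2.51), and Cebpd was 3.14-fold higher. Atf3, itself an ATF4 target, had 52 and 127 counts (2.45-fold, 95% interval 1.76 to 3.44), and Jun and Junb, AP-1 subunits that also respond to growth signals, were the others. Cebpg, the partner most tied to amino acid response genes, was at 50.6 and 54.4 CPM. Among 7 measured relatives of the members, Trib1 was 2.27-fold higher (51.5 and 116.7 CPM), close to the 2.30-fold of Trib3, and Trib2 was at 34.3 and 46.1 CPM; 5 of the 7, Chac2 and Asnsd1 among them, were below 0.

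Other targets of ATF4 and CHOP lay on both sides of 0. Beside them, 6.53% of all 12273 genes were past 2-fold upward, 5.13% downward, and 49.2% were above 0. Of 12 measured enzymes of serine, proline and transsulfuration pathways, 11 were below 0 with a median of −0.49, and Psat1 was 2.18-fold lower (602.7 and 276.0 CPM). Of 13 measured genes of tRNA charging counted as ATF4 targets, the tRNA exporter Xpot included, 11 were below 0 with a median of −0.30 and 0 past 2-fold; the 8 other synthetases had a median of −0.68, with Hars 2.09-fold lower. Of 9 measured amino acid transporter genes, 7 were above 0 and 2 below, at a median of 0.14. Slc7a11, the cystine carrier that is also an NRF2 target, was 5.05-fold higher (64.1 and 323.6 CPM). The leucine carrier Slc7a5 was 2.38-fold lower (364.3 and 152.8 CPM). In a further list of 22 measured targets, which shares Nars with the tRNA charging list, 6 were past 2-fold upward and 1 downward, at a median of 0.43. The 6 were Ndrg1 (160.1 and 1008 CPM) and Vegfa (331.4 and 1518 CPM), which hypoxia also induces, the autophagy genes Sqstm1 (2.56-fold) and Map1lc3b (2.82-fold), and the pro-apoptotic Bbc3 and Bcl2l11. The 1 lower was Stc2, a secreted glycoprotein, at 44.6 and 11.3 CPM.

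For neighbouring stress programmes, genes past 2-fold are counted beside shares over all 12273 genes of 5.13% downward and 6.53% upward. Of 23 targets and components of the ATF6 and XBP1 branches of the unfolded protein response, 17 were below 0 (Dnajc3, also in the list of kinase inhibitors, among them), 2 were past 2-fold downward (Creld2, 2.56-fold, and Sdf2l1, 2.29-fold) and 0 upward, at a median of −0.51. Hspa5, the chaperone BiP, was at 2237 CPM without the compound and 1303 CPM with it, opposite in direction to Ddit3, Trib3 and Ppp1r15a. The 6 genes of this list above 0 went the same way as those members, Dnajb9 furthest at 22.7 and 38.5 CPM. Of 10 mitochondrial stress genes 9 were below 0 with a median of −0.35 and 2 at least 2-fold lower, the chaperonin genes Hspd1 and Hspe1. Among 16 regulators of mTORC1 around Ddit4 and Sesn2, 11 were above 0 and 5 below, the median was 0.07, and Castor2, related to the arginine sensor Castor1, was the 1 at least 2-fold higher (7.15 and 23.6 CPM).

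**Figure D4:**
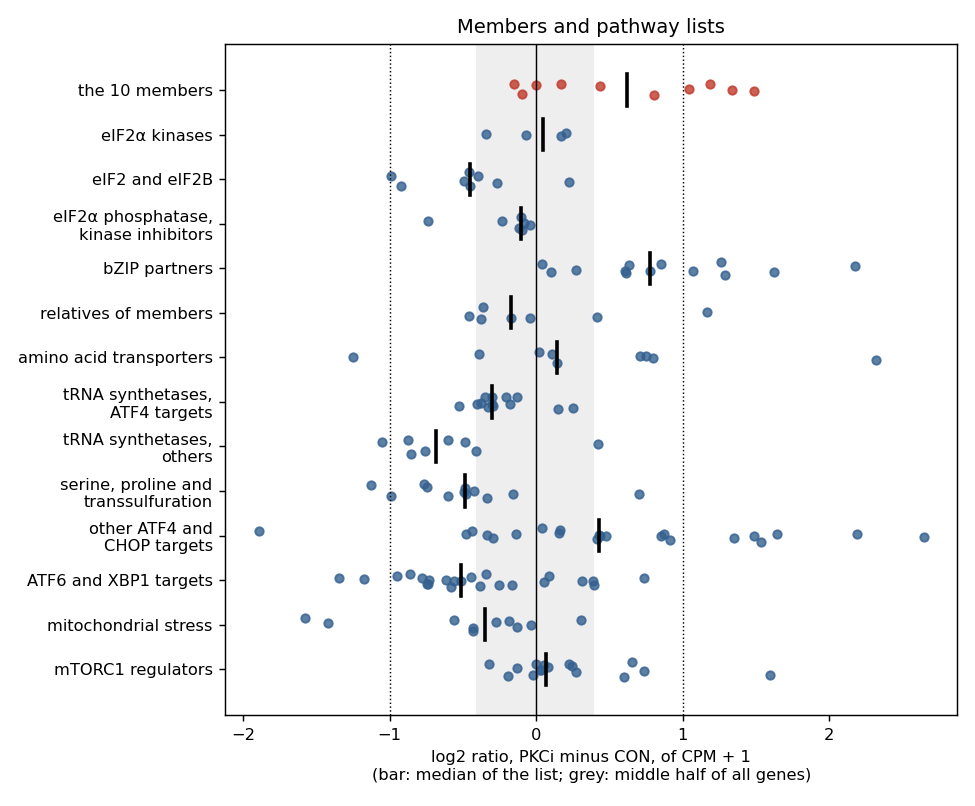
Log2 ratio of CPM + 1, PKCi minus untreated, for the 10 members (red) and the measured genes of each pathway list (blue), with a bar at each list's median, dotted lines at 2-fold and the range between the quartiles of all genes in grey. The medians of the members (0.62), the bZIP partners (0.78) and the other ATF4 and CHOP targets (0.43) lie right of the grey band, and those of the other tRNA synthetases (−0.68), ATF6 and XBP1 targets (−0.51), serine and proline enzymes (−0.49) and eIF2 and eIF2B (−0.45) lie left of it.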

How the data were processed

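RNA of 2 cultures was sequenced, and libraries were grouped by the treatment in the labels. The authors deposited whole-number counts per gene with identifiers, positions and lengths per the file headers; the table's name speaks of FPKM, but the columns hold integers that sum to 16090186 and 16071153 and were used as raw counts. HISAT2 2.0.5 and the builds GRCm38 and mm10 are named in the submitters' processing notes; for the counting program, its strand setting, annotation and filters the entry is "not given in the sources used here". Columns that could not be assigned numbered 0. Labels speak of a stranded kit in one place and an unstranded kit and retinas in another.

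CPM are counts scaled so that each library sums to 1000000. Log2 ratios used a pseudocount of 1 CPM, and genes reaching 1 CPM in either library entered counts. TPM used the deposited gene lengths. Intervals were exact at 95%, and they cover counting error only, since each group has 1 library. Reads lacking molecular identifiers may repeat a molecule, which would make the intervals too narrow even for counting error. The calculation was tested on simulated counts. Where a symbol stood at several identifiers, that with most counts was used. Near-identical gene copies could share reads. Alternatives covered scaling (TMM from edgeR 4.0.16, median of ratios, upper quartile), length, pseudocount, filter and fold size. Promoters came from RefSeq (GRCm38.p6). Python 3.11.15 and scipy 1.17.1 were used. All 10 members are named, and of each pathway list the genes at least 2-fold apart or up to 4 with the largest log2 ratios. Relatives and kinases are named freely. Cebpg, Hspa5 and Dnajb9 were added after their values were seen. The members, lists and rules were chosen with earlier results of these data known.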

Additional observations from a re-analysis of the deposited data

How the results depend on the processing

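Nupr1, Ddit4 and Trib3 were at least 2-fold higher in all 9 settings of scaling, length, pseudocount and filter. Ppp1r15a was so in 8 of 9, the exception being a log2 ratio of 0.86 with a pseudocount of 5 CPM. The 9 include the reported setting, and the filter settings repeat its ratios by construction, since a filter does not enter a gene's own ratio. The number of members at least 2-fold higher ranged from 3 (pseudocount of 5 CPM) to 5 (at 1.5-fold in place of 2-fold, which adds Ddit3), and 0 were lower in every setting. The members' median log2 ratio ranged from 0.57 to 0.65. Sesn2 lay between −0.02 and 0.03 and was above 0 in 2 of 9 settings. Counts over all genes moved more. Genes at least 2-fold higher numbered 802 as reported, 1398 per length, 449 with a pseudocount of 5 CPM and 2058 at 1.5-fold. Those lower numbered 630, 985, 324 and 2048. A larger pseudocount and a smaller fold change these counts by construction; for the counts per length the cause was not tested. No scaling moved the median of all genes by 0.1. No paired analysis was possible because each group has 1 library, and for the same reason no replicate could be left out. Members with few counts, Ppp1r15a (198 untreated), Ddit3 and Chac1, have the widest counting intervals.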
